A study of Bos taurus with 79 samples.

Results

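PIK3IP1 and DEPP1 were followed in the endometrium of heifers, 2 of the 9155 genes that a probe set names alone. They were chosen by their measured day 16 values, since both had among the largest differences between cyclic and pregnant animals in the response to high progesterone. Every probe set to which the platform annotation gives 1 of these symbols alone was taken, which gave 3 of the 24016 probe sets tested. PIK3IP1 (gene ID 512082) is read by Bt.20918.1.A1_at, called the A1 probe set here, and by Bt.20208.1.S1_at, called the S1 probe set. DEPP1 (gene ID 613715) is read by Bt.14219.1.S1_at. Since day 16 chose the genes, their day 16 values are a description without a test, and tests are given on days 5, 7 and 13 only.

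The samples were strips of endometrium from cross-bred beef heifers, with 1 Affymetrix bovine array for each of 79 samples. The 16 groups combine the day of slaughter (5, 7, 13 or 16 of the cycle or of early pregnancy) with 4 arms. These arms were cyclic heifers with normal progesterone (CN), cyclic with high progesterone (CH), pregnant with normal (PN) and pregnant with high progesterone (PH). High progesterone came from a progesterone-releasing intravaginal device (PRID) inserted on day 3 and left in place until slaughter, to raise systemic progesterone transiently, in a range the labels give as 1 ng/ml. All heifers had first been synchronized, and the pregnant arms had been inseminated. Each group held 5 arrays, except CH on day 7 with 4. The replicates are labelled as biological, and how pregnancy was established is not given in the sources used here.

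PIK3IP1 is a transmembrane protein that binds the catalytic subunit of phosphatidylinositol 3-kinase (PI3K) and dampens its signal. PI3K activates the kinase AKT, which keeps FOXO transcription factors out of the nucleus, so low PI3K activity lets FOXO factors act on their targets. DEPP1 was first described as a progesterone-induced transcript of decidualizing endometrial stroma, is a FOXO target in several cell types and has been linked to autophagy.

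All values are deposited log2 expression values, in which 1 unit is a doubling, group levels are means ± SD over arrays, and differences carry the standard error (SE) of a limma fit. A gene was called where the Benjamini-Hochberg adjusted p of that fit over all 24016 probe sets was under 0.05. Array medians ran from 4.71 to 5.12. Against a median probe set mean of 5.04, the mean over all arrays was 6.33 for the A1 probe set, 4.30 for the S1 probe set and 4.49 for DEPP1. Apart from the rest stood 2 arrays with a narrow spread of values (CH 3 on day 7 and PH 1 on day 13), 5 arrays far from their group mean, among them both narrow ones, and 6 arrays with high smooth muscle markers, none of all these from day 16. Within day 16 the spread was narrowest in CH 1, CH 3, CH 4 and CH 5 (SD over probe sets 2.833, 2.831, 2.835 and 2.819). CH 2 read 2.881 and the other day 16 arrays 2.849 or more. The part of this group-wide property in the day 16 values was not tested. Strips of endometrium hold several cell types, so fewer cells of a type and less RNA per cell cannot be told apart.

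On day 16 PIK3IP1 was high in cyclic heifers with normal progesterone, lowest in cyclic heifers with high progesterone, and between them in both pregnant groups. With the A1 probe set the CN arrays read 7.77, 8.09, 8.62, 8.01 and 8.08 (8.11 ± 0.31, SD, n = 5). The CH arrays read 6.47, 6.54, 5.06, 6.43 and 7.25 (6.35 ± 0.80, SD, n = 5). Every CH array lay below every CN array, and the highest CH array came from replicate 5 while replicate 3 lay far below the others. The PN arrays read 7.49, 7.97, 6.63, 7.24 and 7.03 (7.27 ± 0.50, SD, n = 5). The PH arrays read 6.94, 7.66, 7.19, 7.54 and 7.76 (7.42 ± 0.34, SD, n = 5). The PH range lay within the PN range.

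The S1 probe set gave the same order of CN and CH. Its CN arrays read 5.83, 6.13, 6.07, 5.99 and 6.33 (6.07 ± 0.18, SD, n = 5), and its CH arrays 4.60, 4.73, 3.05, 3.77 and 4.20 (4.07 ± 0.68, SD, n = 5). The PN arrays read 5.37, 5.86, 4.17, 5.14 and 5.35 (5.18 ± 0.62, SD, n = 5), and the PH arrays 3.86, 5.48, 5.20, 5.29 and 5.30 (5.03 ± 0.66, SD, n = 5). Again every CH array lay below every CN array, which was so for 1.38% of all probe sets, and CH 3 was the lowest array of the day in both probe sets. The pregnant groups overlapped, with 1 low array in each (PN 3 and PH 1).

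DEPP1 had another shape on day 16: it was low in cyclic heifers with high progesterone and highest in pregnant heifers with high progesterone. The CN arrays read 4.84, 5.60, 5.71, 5.99 and 5.80 (5.59 ± 0.44, SD, n = 5), and the CH arrays 4.64, 4.30, 4.57, 4.94 and 4.33 (4.56 ± 0.26, SD, n = 5). These ranges met only through CN 1, which lay below CH 4. The PN arrays read 4.69, 4.99, 5.30, 5.54 and 5.66 (5.24 ± 0.40, SD, n = 5), and the PH arrays 6.79, 5.86, 6.44, 7.14 and 5.91 (6.43 ± 0.55, SD, n = 5). Every PH array lay above every PN array, as in 0.512% of all probe sets, and above every CH array, as in 1.69%.

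**Figure D1:**
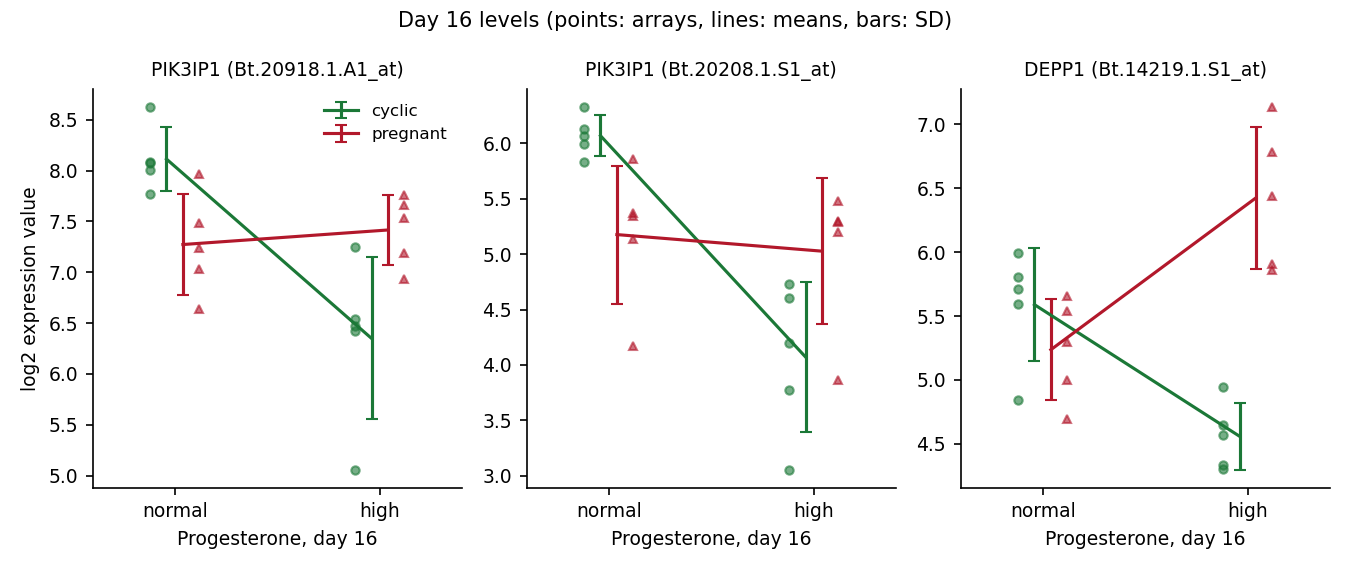
Log2 expression value (vertical axis) of each day 16 array of the 3 probe sets, at normal and high progesterone (horizontal axis), with group means joined by lines and bars of 1 SD, n = 5 per group. The cyclic line falls in each panel, from 8.11 to 6.35 with the A1 probe set, while the pregnant line is nearly level for PIK3IP1 and climbs from 5.24 to 6.43 for DEPP1.

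The difference between high and normal progesterone can be written for each status. In cyclic heifers it was -1.76 ± 0.27 (SE) for the A1 probe set, -1.997 ± 0.32 for the S1 probe set and -1.03 ± 0.26 for DEPP1. In pregnant heifers it was 0.14 ± 0.27, -0.15 ± 0.32 and 1.19 ± 0.26 in the same order. PIK3IP1 thus differed between progesterone levels in the cyclic arms, whereas DEPP1 differed in both, in opposite directions. Read the other way, pregnant minus cyclic at normal progesterone was -0.84 ± 0.27, -0.89 ± 0.32 and -0.35 ± 0.26, and at high progesterone 1.07 ± 0.27, 0.96 ± 0.32 and 1.87 ± 0.26. Averaged over both progesterone levels, the pregnancy difference hid these opposed differences for PIK3IP1, at 0.11 ± 0.19 and 0.03 ± 0.23. For DEPP1 it was 0.76 ± 0.18. The progesterone difference averaged over cyclic and pregnant heifers was -0.81 ± 0.19 for the A1 probe set, -1.07 ± 0.23 for the S1 probe set and 0.08 ± 0.18 for DEPP1.

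The interaction, PH minus PN less CH minus CN, was 1.91 ± 0.39 (SE) for the A1 probe set, 1.85 ± 0.45 for the S1 probe set and 2.22 ± 0.37 for DEPP1. In the order of all 24016 probe sets from the highest interaction down, DEPP1 stood at place 14, the A1 probe set at 32 and the S1 probe set at 39. All 3 probe sets were among the 149 called higher, 0.62% of those tested, which follows from how the genes were chosen, and 0.87% were called in either direction. Without CH 3 the interaction was 1.58 for the A1 probe set, 1.59 for the S1 probe set and 2.22 for DEPP1. Over the omission of each day 16 array in turn it stayed between 1.58 and 2.13, 1.59 and 2.14, and 2.04 and 2.41. The number of probe sets called in either direction was less steady: it was 209 with all arrays and 3 without CH 3.

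**Figure D2:**
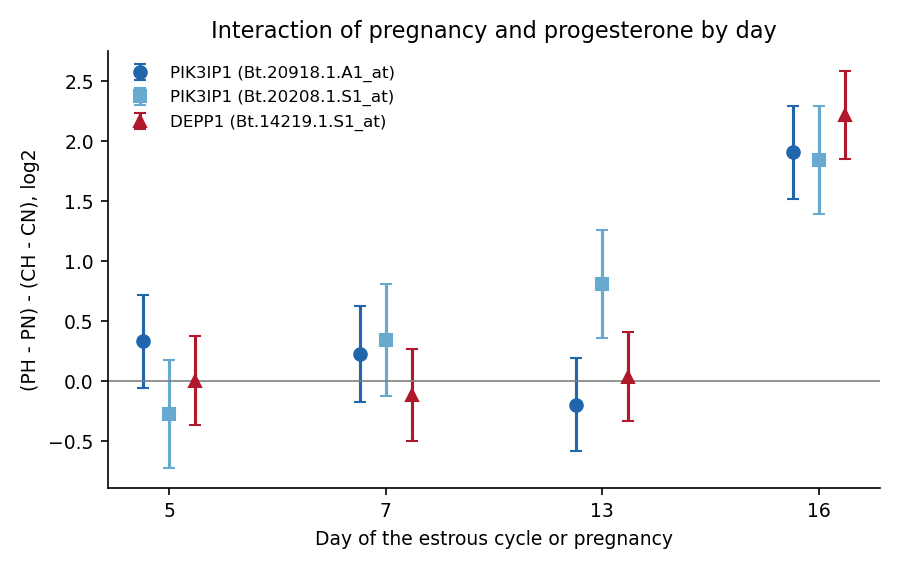
Interaction on the log2 scale (vertical axis, points with bars of 1 SE) of the 3 probe sets on days 5, 7, 13 and 16 (horizontal axis). On day 16 the points lie at 1.91, 1.85 and 2.22, and on day 13 at -0.19, 0.81 and 0.04.

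The 2 genes took different places among the probe sets called higher. Of the 146 others, 145 were lower in CH than in CN, 145 were higher in PH than in PN, and 144 were both. The opposed pattern of DEPP1 was thus the common one within this set. A call for a higher interaction on the same arrays itself favours these signs, so the counts and the shares below describe the set without a test. Nearly all calls of the set were also lost when 1 CH array was left out, as given above. The drop from CN to CH made up 46.4% of the interaction of DEPP1, 92.5% for the A1 probe set and 108% for the S1 probe set, and the median of the 146 others was 57.7%. A larger cyclic share than that of the A1 probe set was seen in 4 of these 146, and than that of the S1 probe set in 1. The cyclic share of DEPP1 was exceeded in 114 of them.

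**Figure D3:**
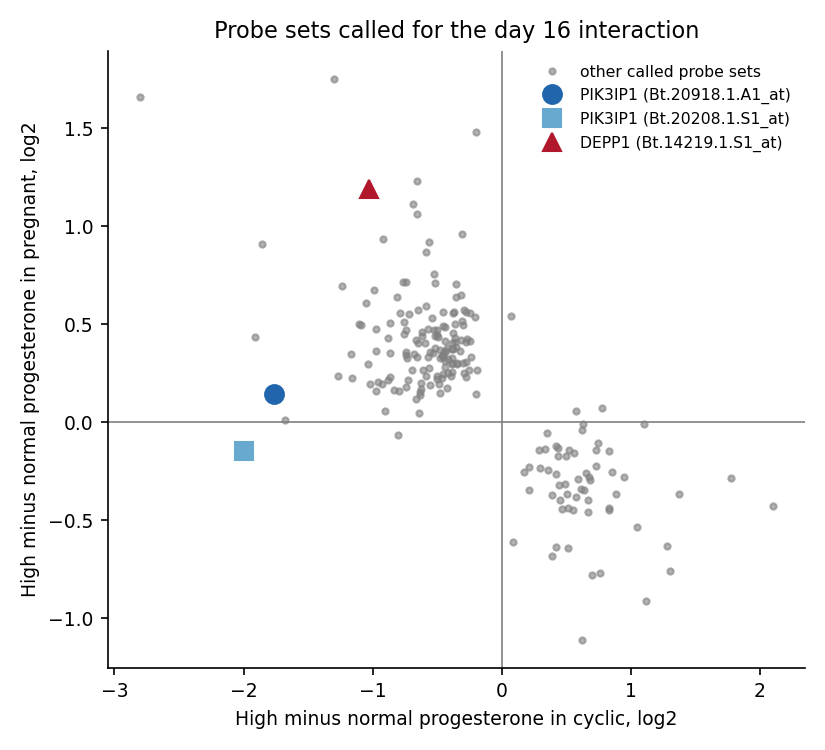
High minus normal progesterone on day 16, log2, in cyclic (horizontal axis) against pregnant heifers (vertical axis) for the 209 probe sets called for the interaction, 1 point each. DEPP1 lies at -1.03 and 1.19, at the upper left with most others, and PIK3IP1 lies at the far left near 0 on the vertical axis.

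Leaving out PIK3IP1 and DEPP1, probe sets without a single symbol and LOC symbols, the 5 highest called interactions were those of CRYGS, a lens crystallin (4.46 ± 1.05, SE), GSTA2, a glutathione transferase (3.05 ± 0.76), TLR5, the flagellin receptor (1.88 ± 0.46), MECR, an enzyme of mitochondrial fatty acid synthesis (1.85 ± 0.46), and IP6K2, an inositol phosphate kinase (1.69 ± 0.43). The 5 lowest were ADAMTS4, a matrix protease (-2.53 ± 0.66), the chemokine-binding receptor ACKR1 (-2.06 ± 0.41), the endothelin receptor EDNRB (-2.06 ± 0.41), ANKMY2 (-1.58 ± 0.40) and the zinc finger gene ZNF668 (-1.53 ± 0.39). All 10 passed the limma test with adjusted p between 0.0154 and 0.0419, and all 10 lost the call without CH 3. IP6K2 was lowest in CH and nearly level between PN and PH, as PIK3IP1 was, with means of 8.46, 6.79, 8.01 and 8.03 in CN, CH, PN and PH.

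Markers of the tissue's cell types were read on the same arrays. The mean of 6 of 6 epithelial markers was 9.02, 8.73, 8.99 and 9.21 in CN, CH, PN and PH, the order seen for DEPP1, with array ranges of 8.73 to 9.19, 8.55 to 8.96, 8.71 to 9.17 and 8.91 to 9.32. Its interaction median was 0.58, positive in 5 of 6 markers, and 0 of 6 were called by limma. The mean of 6 of 6 smooth muscle markers was highest in CH, at 8.10, 8.63, 7.65 and 7.71, with array ranges of 7.22 to 9.16, 8.06 to 8.98, 7.02 to 7.97 and 6.75 to 8.71 and an interaction median of -0.71. The part of these markers in the day 16 pattern was not tested. Stromal marker means lay between 12.02 and 12.22 in the 4 groups. EPCAM at 12.94, high in epithelium, and the stromal markers bear the tissue label out, though the KRT8 probe set read only 2.23, and the mean of 3 of 3 red blood cell markers was at most 2.52 in any day 16 array.

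Before day 16 both PIK3IP1 probe sets rose steeply between day 7 and day 13, in every arm, while DEPP1 moved little. With the A1 probe set day 7 means were 5.34, 5.76, 5.22 and 5.87 in CN, CH, PN and PH, and day 13 means were 7.29, 7.65, 7.47 and 7.63. Averaged over the arms the change was 1.96 ± 0.14 (SE, limma adjusted p = 2.89e-19), and by arm 1.96, 1.89, 2.25 and 1.76. The S1 probe set changed by 1.75 ± 0.16 (limma adjusted p = 1.68e-14), with 1.997, 1.42, 1.85 and 1.74 by arm. Of the 3 probe sets 2 were called higher, against 18.8% of all probe sets, and these 2 read the same gene. Every day 13 array lay above every day 7 array of its arm with the A1 probe set, in 4 of 4 arms, which held for 1.19% of probe sets. With the S1 probe set this held in CN, CH and PN, as in 5.94%, 9.28% and 7.86% of probe sets, and PH overlapped through PH 1 of day 13, the narrow array, at 4.26.

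DEPP1 changed by 0.28 ± 0.13 (SE) from day 7 to day 13 (limma adjusted p = 0.101), with 0.00, 0.34, 0.14 and 0.63 by arm. The day 7 CH arrays read 3.69, 5.46, 4.12 and 3.78, and the high one is the narrow array CH 3. Without that array the change was 0.38 and passed (limma adjusted p = 0.0121), and without PN 1 of day 7, at 5.04 the highest of its group, it was 0.34 and passed too. Between day 5 and day 7 the A1 probe set rose by 0.58 ± 0.14 (limma adjusted p = 0.00113), with 8.84% of all probe sets called higher. The S1 probe set differed by 0.25 ± 0.16 (limma adjusted p = 0.332) and DEPP1 by 0.19 ± 0.13 (limma adjusted p = 0.381) and neither passed. Over the same span from day 7 to day 13 endothelial markers were higher in 5 of 6 (median 0.54), epithelial markers in 2 of 6 with 1 lower, and smooth muscle markers in 0 of 6 with 1 lower, and their part in the rise of PIK3IP1 was not tested.

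From day 13 to day 16 the arms parted, again as a description. DEPP1 was higher on day 16 by 1.22 ± 0.26 (SE) in CN, 1.03 ± 0.26 in PN and 1.95 ± 0.26 in PH, and its difference in CH was -0.04 ± 0.26. In CN, PN and PH every day 16 array lay above every day 13 array, which held for 1.39%, 1.84% and 1.17% of probe sets. PIK3IP1 differed by -1.30 ± 0.27 (A1) and -1.06 ± 0.32 (S1) in CH, where every day 16 array lay below every day 13 array, as in 0.841% of probe sets. In CN it stood higher by 0.82 ± 0.27 and 0.62 ± 0.32, though the CN arrays of day 13 and day 16 overlapped in both probe sets. In PN and PH the differences lay between -0.47 and 0.16. For PIK3IP1 the day 16 gap between the cyclic groups therefore joined a higher mean in CN than on day 13 to a lower mean in CH. For DEPP1 it joined a higher mean in CN to a mean in CH close to that of day 13.

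**Figure D4:**
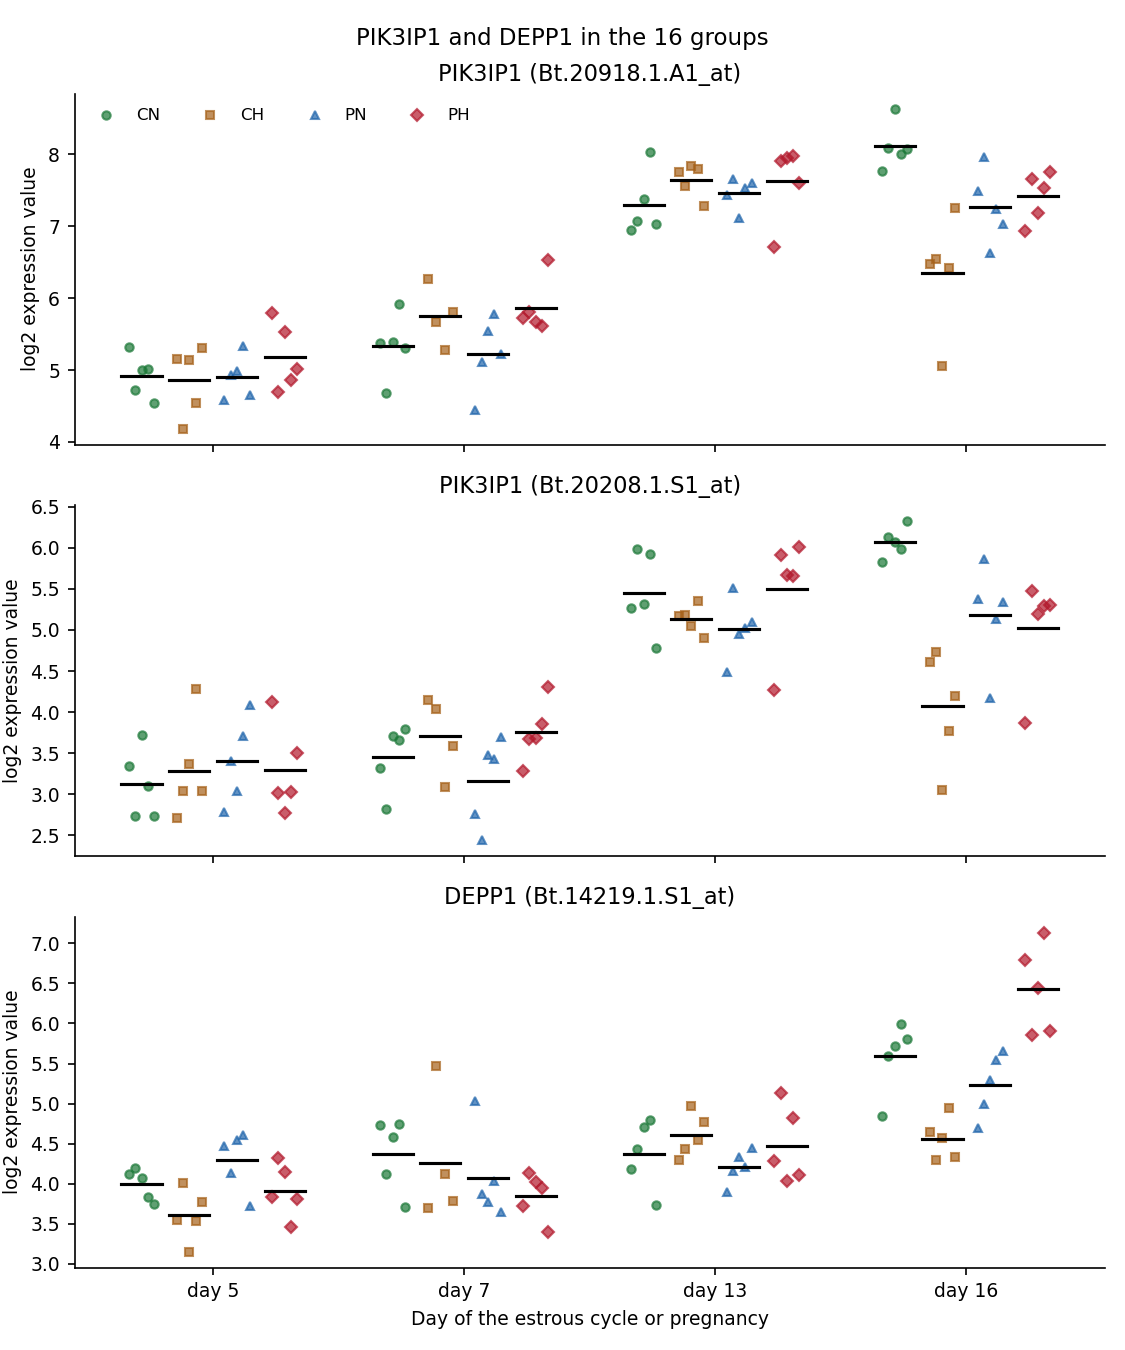
Log2 expression value (vertical axes) of every array for the 3 probe sets by day (horizontal axis) and arm (CN, CH, PN and PH as coloured symbols), with group means as black bars; n = 5 per group, 4 in CH on day 7. PIK3IP1 steps up between day 7 and day 13, from 5.34 to 7.29 in CN with the A1 probe set, and DEPP1 stays near 4 until day 13 and spreads out on day 16.

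Ordered by mean, the 16 groups formed a gradient with few steps. With the A1 probe set CN of day 16 stood first at 8.11 and CH of day 13 next at 7.65. Between 7.27 and 8.11 lay 7 groups. CH of day 16 came below them at 6.35, and the 8 groups of days 5 and 7 followed down to 4.86. The S1 probe set also had CN of day 16 first and CH of day 16 in 8th place. For DEPP1 the order began with PH, CN and PN of day 16 at 6.43, 5.59 and 5.24, and CH of day 16, at 4.56, fell among the day 13 groups. In each probe set 2 of the 15 steps between neighbours exceeded their pooled SD: below the first group in all 3, above CH of day 16 for both PIK3IP1 probe sets, and below PN of day 16 for DEPP1. Neighbouring groups overlapped in every case.

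On days 5, 7 and 13 no effect of pregnancy or progesterone and no interaction passed the test in any of the 3 probe sets. The interaction on day 5 was 0.34 ± 0.39 (A1), -0.27 ± 0.45 (S1) and 0.01 ± 0.37 (DEPP1), with limma adjusted p = 1 for each and 0% of all probe sets called. On day 7 it was 0.23 ± 0.40, 0.34 ± 0.46 and -0.11 ± 0.38 (limma adjusted p = 0.835, 0.768 and 0.922; 0.025% called). On day 13 the PIK3IP1 probe sets disagreed in sign, at -0.19 ± 0.39 and 0.81 ± 0.45 (limma adjusted p = 1 and 0.576), and DEPP1 read 0.04 ± 0.37 (limma adjusted p = 1; 0.0208% called). The day 16 values were 1.85 to 2.22, and the difference between days was not tested because day 16 chose the genes.

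The largest progesterone difference on these days was that of PIK3IP1 on day 7. The A1 probe set was higher with the device by 0.53 ± 0.20 (SE, unadjusted p = 0.00954, limma adjusted p = 0.116), with 0.42 in cyclic and 0.65 in pregnant heifers, and the S1 probe set by 0.43 ± 0.23 (limma adjusted p = 0.333). At that day 4.7% of probe sets were called. DEPP1 was lower by 0.39 ± 0.18 on day 5 (difference -0.39, limma adjusted p = 0.423, 0.908% called), equally in cyclic and pregnant heifers at -0.39 each. On day 13 the progesterone differences were 0.26, 0.08 and 0.25 (limma adjusted p = 0.902, 0.952 and 0.902; 0.441% called). Pregnancy differences ran from -0.36 to 0.31 over the 3 days, with limma adjusted p from 0.607 to 1 and 0.0167%, 0% and 0% of probe sets called on days 5, 7 and 13.

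The rest of the pathway was taken from 10 lists, of whose 167 symbols 116 were measured. FOXO1, FOXO3, TSC22D3, KLF9, PER1 and TXNIP could not be matched and were not analysed here. Each gene was read from its probe set of highest mean, and 46 of the genes had others. Read so, 1 of the 116 was called for the day 16 interaction by limma, beside 0.87% of all probe sets. A count of 1 among 116 is near that share, so the lists together are not set apart from the rest. A single list is not set apart either by holding no call. The called gene was PGRMC1, a membrane-associated progesterone receptor component (0.94 ± 0.20, SE, limma adjusted p = 0.0154). Its means were 11.79, 11.29, 11.52 and 11.96 in CN, CH, PN and PH, the order of DEPP1. It no longer passed without CH 3 of day 16, or when the day 16 arrays were fitted alone, and its other probe set read -0.34 ± 0.37 (SE, limma adjusted p = 0.72). Among the other probe sets of all list genes 1 was called, that of GABARAPL1 described below. PGR, the nuclear progesterone receptor, read 2.41 to 2.55 on day 16, near the lowest values of the arrays, and NR3C1, the glucocorticoid receptor, had an interaction of -0.25 ± 0.36.

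With 0.87% of all probe sets called for the day 16 interaction, none of the measured subunits of the PI3K enzyme was. Its catalytic subunit PIK3CA had an interaction of 0.00 ± 0.40 (SE) with means of 6.17 to 6.22, and the regulatory subunits PIK3R1 and PIK3R3 had 0.77 ± 0.41 and -0.17 ± 0.51. The median of the 5 measured subunits was 0.01, beside -0.04 over all probe sets. Of 10 receptors and adaptors upstream none was called (median 0.08), and the largest values were -1.30 ± 0.37 for KIT, the stem cell factor receptor (limma adjusted p = 0.0621), and 1.17 ± 0.41 for MET, the hepatocyte growth factor receptor. Without CH 2 or without PH 2 of day 16 KIT passed the test. Of 13 AKT and mTOR kinases and substrates none was called (median 0.09). AKT1 read 0.05 ± 0.16 (0.51 ± 0.22 with its other probe set), the translation repressor EIF4EBP1 1.07 ± 0.36 and the kinase SGK3 0.94 ± 0.43. Of 10 other inhibitors of the pathway none was called (median -0.15). Their largest values were those of the pseudokinase TRIB2 at -0.78 ± 0.36 and the lipid phosphatase INPP5K at 0.65 ± 0.30. Under the alternative settings 0 to 3 receptors and adaptors were called higher and 0 to 1 lower. Of the AKT and mTOR genes 0 to 2 were called higher, and of the inhibitors 0 to 1 lower.

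For the day 16 interaction 0.87% of all probe sets were called. FOXO factors and their known targets, 22 measured, held no called interaction on day 16 in the probe sets read (median -0.15, 10 of 22 positive). The largest were ERBB3, a receptor kinase, at 1.14 ± 0.53 (SE) and GABARAPL1, which builds autophagosomes, at 1.09 ± 0.30 (limma adjusted p = 0.0522), with means of 11.66, 10.80 and 11.78 in CN, CH and PN and its highest mean in PH. GABARAPL1 passed the test when any 1 of CN 4, CH 1, CH 2, PN 1, PH 2 and PH 5 was left out. Its other probe set was called with all arrays (0.90 ± 0.24, limma adjusted p = 0.0466), so the gene lay on either side of the threshold. The 26 autophagy genes had a median of 0.11 with 17 positive and none called in the probe sets read. The autophagy receptor OPTN read 0.77 ± 0.32. Under the alternative settings 0 to 3 of the FOXO list were called higher and 0 to 3 lower. Of the autophagy genes 0 to 3 were called higher and 0 to 2 lower. Of 15 glucocorticoid-responsive genes 12 were positive (median 0.26) and none was called, with 0 to 1 called higher under the alternative settings. FKBP5, a cochaperone of steroid receptors induced by progestins and glucocorticoids, read 1.77 ± 0.77 (limma adjusted p = 0.282), with means of 6.23, 4.22, 6.37 and 6.12 that dip in CH, where its SD was 1.66, and the transcription factor CEBPB read 0.94 ± 0.57 (-0.49 ± 0.29 with its other probe set).

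The remaining lists held no call for the interaction besides PGRMC1, with 0.87% of all probe sets called. Under the alternative settings 0 to 1 gene was called higher in each of them, and 0 to 1 lower among the decidualization-related genes. The steroid receptor list of 8 had a median of -0.09, with FKBP4, another cochaperone, at 0.35 ± 0.29 (SE). The 9 decidualization-related genes had a median of -0.02, with the Wnt antagonist DKK1 at 1.18 ± 0.96 and IGFBP1, a classic decidual product, at 0.15 ± 0.66. The 8 interferon-stimulated genes were all higher in pregnancy on day 16 by limma (median 5.35, with 2.13% of all probe sets called higher), but for the interaction none was called (median 0.09), with IFIT2 at 1.98 ± 0.87, USP18 at 0.41 ± 1.04 and ISG15 at -0.19 ± 1.54. IFIT2 passed the test without PH 5.

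The step of PIK3IP1 between day 7 and day 13 was shared by much of the FOXO list. By limma 14 of its 22 genes rose and 1 fell, with a median of 0.59 beside -0.01 for all probe sets, of which 18.8% rose and 18.1% fell. The risers named next were chosen after their values were seen. FBXO32, a ubiquitin ligase of muscle wasting, rose by 1.76 ± 0.20 (SE) and the factor FOXO4 by 1.60 ± 0.15. The cell cycle inhibitor CDKN1A rose by 1.54 ± 0.18 and PDK4, a pyruvate dehydrogenase kinase, by 1.47 ± 0.21. The catalase gene CAT fell by 0.26 ± 0.07. Under the alternative settings 12 to 14 rose and 1 to 4 fell. The list was written with results of these arrays known, so its direction is no independent evidence.

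**Figure D5:**
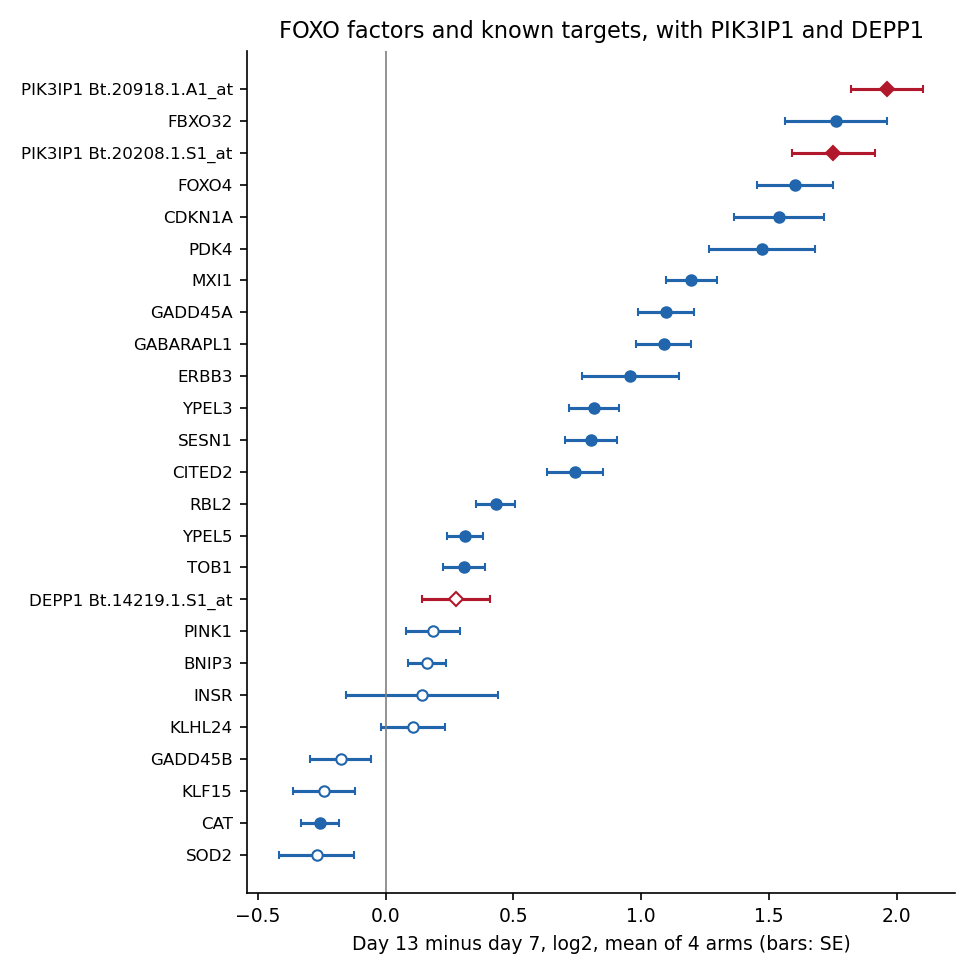
Day 13 minus day 7 on the log2 scale, mean of 4 arms (horizontal axis, bars 1 SE), for 22 FOXO factors and targets (blue circles) and the 3 probe sets of PIK3IP1 and DEPP1 (red diamonds), 1 per row; filled symbols passed the limma test. PIK3IP1 lies among the largest increases at 1.96 and 1.75, and DEPP1 lies at 0.28.

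Over the same days 14 of 26 autophagy genes rose and 4 fell (median 0.17), led upward by GABARAPL2 at 1.13 ± 0.07 (SE) and downward by MAP1LC3A at -1.59 ± 0.17. Of 9 decidualization-related genes 5 rose and 2 fell (median 0.28), and IGFBP1 rose by 7.04 ± 0.24. Of 15 glucocorticoid-responsive genes 6 rose and 3 fell. Of 8 genes in the steroid receptor list 3 rose and 1 fell, and of 8 interferon-stimulated genes 1 rose. Of the PI3K subunits PIK3R3 rose by 1.29 ± 0.18 and PIK3R2 fell by 1.10 ± 0.11, and among upstream receptors and adaptors 6 of 10 rose and none fell, MET by 2.39 ± 0.15. Of 13 AKT and mTOR genes 3 rose and 6 fell, among them AKT1 (-0.56 ± 0.06) and EIF4EBP1 (-1.09 ± 0.13). Of 10 other pathway inhibitors 3 rose, INPP5K by 1.08 ± 0.11, SESN1 by 0.80 ± 0.10 and SESN2 by 0.33 ± 0.12, while DDIT4 fell by 1.11 ± 0.11 and TRIB1 by 0.64 ± 0.12. SESN2 lost its call without CN 5 or without PH 4 of day 7, and its other probe sets did not pass. 1 of the other probe sets of SESN1 (-0.04 ± 0.12) and the other one of PIK3R2 (-0.07 ± 0.08) did not pass either. Over all lists the other probe sets left 3 genes called only by them and 1, ATG4B, called in opposite directions. These genes too were named after their values were seen.

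The 2 PIK3IP1 probe sets followed each other over the 79 arrays with Pearson r = 0.92, and with r = 0.59 once group means were removed, given as a description. PIK3IP1 (A1) and DEPP1 had r = 0.66 over the 16 group means, which share the same arrays. Among these means are those of day 16, whose values chose both genes, so this r is no independent evidence of a relation. No relation between the genes within groups passed the test. Over deviations from group means of all 79 arrays Pearson's r was -0.0906 and Spearman's rho -0.0548 (two-sided permutation within groups, p = 0.475 and 0.670; adjusted over 5 relations 0.594 and 0.838), and r was -0.119 without the 2 arrays farthest out. By day r was 0.0022, -0.315, 0.396 and -0.224 on days 5, 7, 13 and 16, with permutation p adjusted over 5 relations from 0.485 to 0.993. With the S1 probe set, added after the data were seen, r over all arrays was -0.0941.

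The genes most like each member were ranked by Pearson r of log2 values over the 79 arrays, among 6139 genes with a mean of at least 5. For PIK3IP1 (A1) they were ARSA, the lysosomal arylsulfatase A (0.92), NDRG2 (0.92), RGN or regucalcin (0.91), GABARAPL2, an autophagy protein (0.91), and OGA, which removes O-GlcNAc (0.91). These correlations rest on differences between groups, since over deviations from group means they were 0.24 to 0.44. All 5 also had their lowest day 16 mean in CH. ARSA and NDRG2 read 8.61 and 10.03 there against 9.72 and 10.92 in CN, and the gaps of RGN, GABARAPL2 and OGA were smaller. None was called for the day 16 interaction (limma adjusted p from 0.0715 to 0.687). The ranking included the day 16 arrays that chose PIK3IP1.

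For DEPP1 the list was SLC2A1, the glucose transporter GLUT1 (0.76), the mitochondrial iron carrier SLC25A28 (0.74), the arrestin family member ARRDC2 (0.73), the epithelial serine protease PRSS8 (0.72) and the purine enzyme ATIC (0.72). Over the 59 arrays of days 5, 7 and 13, which did not choose the genes, these r were 0.16 to 0.49, and those of the genes like PIK3IP1 0.92 to 0.93. SLC2A1 had day 16 means of 11.33, 10.62, 11.28 and 11.94 in CN, CH, PN and PH, the order of DEPP1. In SLC25A28, ARRDC2, PRSS8 and ATIC PH was also highest and CH lowest, but PN stood above CN. The ranking over 79 arrays included the day 16 arrays that chose DEPP1, so these orders are a description. Of the 5 genes only ATIC was called for the day 16 interaction (limma adjusted p = 0.0297), and SLC2A1 had limma adjusted p = 0.0591. Ranked by deviations from group means instead, the leading 5 genes shared 0 with these lists for either member.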

How the data were processed

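The deposited log2 values, 1 per probe set and array, were used as the authors gave them. The submitters' processing notes name limma besides RMA and GCRMA, with no version. Whether RMA or GCRMA produced the values is not given there, so how background was removed from dim probe sets is not known. Per the labels' protocols 2 µg of total RNA, from 300 mg strips, was labelled. Gene symbols came from the platform annotation, and both kept their symbol in a current cattle gene table. No sequence or position was used.

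Of 24128 probe sets 112 controls were left out and no filter on level was set. Means of the 16 groups were fitted with limma 3.58.1 in R 4.3.3 over all 79 arrays, which share 1 spread per probe set, and p values were adjusted by Benjamini-Hochberg over 24016 probe sets within a comparison. Relations used 100000 resamples in Python 3.11.15 (scipy 1.17.1). Replicates are separate samples per the labels, and their number limits the precision. Arrays of 1 replicate number were not alike (mean correlations of their deviations 0.0294, 0.0467, 0.0228 and -0.00919 on days 5, 7, 13 and 16), so numbers were not treated as pairs. In simulated data the fit recovered 81 of 100 day 16 interactions of 1 log2 unit and 99 of 100 of 2 units, with 9 false calls among 24016. The simulated noise was drawn independently for each probe set and array, with no deviation shared by an array. It therefore checks the fit, and its recovery and false calls do not carry over to the real counts.

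The members and lists were chosen with earlier results of these data known. The list counts for the change from day 7 to day 13 were added after the data were seen. Named genes were, by rule, the 5 most like each member, the 5 highest and 5 lowest called day 16 interactions, and from each list the called genes (at most 6) and the 2 with the largest interaction. Always admitted were PIK3CA, PIK3R1, AKT1, FKBP5, PGR, NR3C1, IGFBP1 and ISG15, besides genes that could not be matched. Genes with several probe sets were read from the one with the highest mean, and the others were set beside it. Alternatives were the days concerned only, quantile normalization, median centring, probe sets above the median level, array weights, trend and robust moderation, the replicate number as a block, and the omission of each array, of 2 narrow arrays, of 5 far from their group mean and of 6 with high smooth muscle markers.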

Additional observations from a re-analysis of the deposited data

Results flagged for a closer look

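In each group of 4 or 5 arrays the highest and the lowest array were set against the rest, and 4 of 48 groups held an array far from the others, where chance gives about 1 in 20. For DEPP1 this was the highest PN array of day 7, at 5.04. For the S1 probe set of PIK3IP1 it was the lowest PH array of day 13, at 4.26, which is 1 of the 2 narrow arrays, and the lowest PH array of day 16, at 3.86. For the A1 probe set it was the highest PH array of day 7, at 6.53, which is 1 of the arrays with high smooth muscle markers. The parts of these properties of the arrays in the values were not tested.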

How the results depend on the processing

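The differences of PIK3IP1 and DEPP1 that involve day 16 moved by less than 1 SD in 96 values under the alternatives and in 300 with an array left out. Their sign changed in 0 of the 96 and in 13 of the 300, all of differences of at most 0.164 in size. Among these were the pregnancy effect without CH 3 (-0.10 from 0.03 for S1, -0.05 from 0.11 for A1), the progesterone effect of DEPP1 without CN 1 or PH 4, and its change from day 13 to day 16 in CH without CH 2 or CH 5 of day 16 or CH 3 of day 13. The rise of PIK3IP1 from day 7 to day 13 stayed between 1.70 and 1.83 (S1) and between 1.91 and 2.02 (A1) with an array left out. The change of DEPP1 over these days, 0.28, passed the test with array weights (0.353) and without the far (0.322) or the narrow arrays (0.388), and ran from 0.229 to 0.376 with an array left out. The day 13 interaction of the S1 probe set, 0.81, passed with array weights (1.20). On days 5, 7 and 13 the sign changed in 16 of 308 values under the alternatives and in 43 of 765 with an array left out, among them the day 7 and day 13 interactions of DEPP1 and A1. None of these values passed the test on either side, and the causes were not tested.

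Counts of called probe sets moved far more. The day 16 interaction (209) gave 3291 with array weights, 9 with the day 16 arrays fitted alone, 518 without the far and 351 without the narrow arrays, and from 3 (without CH 3) to 671 (without CH 2) with an array left out. On day 13 it (5) gave 1542 with weights, 140 with that day alone, 0 among probe sets above the median level, 2 after quantile normalization, 2 without the high smooth muscle arrays, 3 without the narrow ones, and 0 to 10 by omission. On day 7 it (6) gave 43 with weights, 0 with that day alone, 3 after median centring, 0 above the median level, 3 with trend and robust moderation, 2 without the muscle arrays, and 1 to 3210 by omission, the last without CH 5. On day 5 it (0, with 686 at unadjusted p under 0.05) gave 1 with weights, 1 without the muscle arrays, and 0 to 1 by omission.

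The pregnancy effect on day 16 (759) gave 3663 with weights, 374 with the day alone, and 488 to 1273 by omission. On day 13 (0, with 620 unadjusted) it gave 15 with weights, 3 without the far and 1 without the narrow arrays, and 0 to 1 by omission. On day 7 (0, with 1878 unadjusted) it gave 42 with weights, 3 after centring, 1 with trend and robust moderation, 3 without the far, 2 without the muscle and 2 without the narrow arrays, and 0 to 23 by omission. On day 5 (4) it gave 16 with weights, 0 with the day alone, 0 after centring, 0 above the median level, and 0 to 16 by omission.

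The progesterone effect on day 16 (23) gave 5740 with weights, 0 with the day alone, 2 above the median level, 13 after quantile normalization, 1765 without the far and 1704 without the narrow arrays, and 5 to 198 by omission. On day 13 (106) it gave 413, 31 and 167 with weights, with the day alone and without the far arrays, and 60 to 181 by omission. On day 5 (218) it gave 600, 115 and 329 for the same 3 settings, 121 without the muscle arrays, and 141 to 389 by omission. On day 7 (1128) it gave 223 with the day alone and 730 without the far arrays.

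With the replicate number as a block the day 16 interaction gave 171 calls and the pregnancy effect on day 5 gave 0, and no call of PIK3IP1 or DEPP1 changed. Low levels limit the S1 probe set and DEPP1, whose means lie under the median probe set mean of 5.04.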
